A study of Mus musculus with 23 samples.

Results

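Replication licensing is described here from 10 genes that load the replicative helicase onto DNA or restrain that loading, out of 22784 genes in the deposited table. They were chosen by name: Mcm2, Mcm3, Mcm4, Mcm5, Mcm6 and Mcm7 encode the helicase subunits, Orc1, Cdc6 and Cdt1 the loaders, and Gmnn the inhibitor geminin. All 10 were listed, and all 10 passed the filter of at least 1 FPKM (fragments mapped to a gene, scaled to the gene's length and to the size of the library) in at least 1 group, as did 14242 genes in all. The study made mouse oocytes in culture and set them beside oocytes from animals, with poly(A) RNA sequenced from 23 samples in 8 groups.

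The 5 culture groups came from female embryonic stem (ES) cells of the cross C57BL/6 X 129, grown in 2i and LIF, a medium that holds them in a naive state. Primordial germ cell-like cells (PGCLCs) were induced for 6 days and sorted. They were then mixed, 5000 with 50000 gonadal somatic cells of female E12.5 embryos, and collected as reaggregated PGCLCs after 3 days. Secondary follicle oocytes were taken at 21 days, and metaphase II (MII) oocytes, the arrested eggs, after their follicles had been cultured for 11 days more and matured for 16 hours. The 3 animal groups were of the cross B6D2F1: primordial germ cells (PGCs) at E12.5, secondary follicle oocytes at postnatal day 8, both sorted with the BVSC reporter transgenes, and MII oocytes of females aged 8 weeks. Because all culture groups were of one cross and all animal groups of the other, route and strain cannot be told apart. Each group had 3 samples except the day 6 PGCLCs with 2, and the table gave 1 value per gene and group. No difference below has a replicate check, so for no pair of neighbouring levels can it be said whether they differ beyond the spread between samples.

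A cell licenses its replication origins before S phase. The origin recognition complex, of which ORC1 is the largest subunit, sits on DNA and with CDC6 and CDT1 places the ring of MCM2 to MCM7 around it. The ring holds each subunit in equal number and opens the duplex once S phase starts. Geminin binds CDT1 and blocks another round of loading, and CDT1 itself is destroyed in S phase. Mitotic germ cells replicate in every cycle. Oocytes replicate for the last time before meiotic prophase, grow for weeks without DNA synthesis, and pass through both meiotic divisions with no S phase between them. The egg must nevertheless hold what the zygote needs to replicate after fertilization, and in frog oocytes the appearance of CDC6 during maturation is known to give that ability.

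Letters bound by E2F factors, which drive the G1/S genes, were looked for in RefSeq promoters of GRCm38.p6, 250 bases before to 50 bases after a start. The table held 9 promoters for 8 of the members; those of Mcm4 and Gmnn were not used here. The letters searched were TTTCCCGC, TTTGGCGC, TTTCGCGC and TTTGCCGC on both strands, with overlapping matches allowed, and 7 of the 9 promoters held at least 1 match, against 2.27% of all 32841 promoters in the table. By gene, 7 of 8 members had a match, all but Mcm2, against 4.49% of 10682 tested genes with a promoter. The stretches that hold matches are shown 5′ to 3′ on the gene's strand because 7 of the genes described below hold such letters, with the matched letters in capitals. For Mcm7, which has 2 matches, only the upstream one is shown. Both matches of Mcm3 (bases 20 to 27 and 39 to 46) and that of Cdt1 (bases 33 to 40) lie after the start.
Mcm3, chr1:20820265-20820294, minus strand: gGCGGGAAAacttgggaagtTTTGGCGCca
Mcm5, chr8:75109336-75109387, plus strand: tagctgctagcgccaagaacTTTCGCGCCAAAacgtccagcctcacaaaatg
Mcm6, chr1:128359726-128359835, minus strand: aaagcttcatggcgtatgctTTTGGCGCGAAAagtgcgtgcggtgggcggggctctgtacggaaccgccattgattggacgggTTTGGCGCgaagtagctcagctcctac
Mcm7, chr5:138172021-138172068, minus strand: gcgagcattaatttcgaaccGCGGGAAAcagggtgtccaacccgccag
Orc1, chr4:108579407-108579453, plus strand: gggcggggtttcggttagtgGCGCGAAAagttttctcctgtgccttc
Cdc6, chr11:98907993-98908040, plus strand: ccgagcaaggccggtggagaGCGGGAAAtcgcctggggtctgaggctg
Cdt1, chr8:122568035-122568064, plus strand: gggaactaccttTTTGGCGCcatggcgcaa
In Mcm5 and in the upstream match of Mcm6, matches on opposite strands overlap. The letters CCAAT were in promoters of 6 of the 8 members, against 43.1% of tested genes. A match of either kind is a description of the letters, not of a bound site, and genes with an E2F match took different paths below.

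The table was checked against 8 oocyte markers, which summed to between 10725 and 15433 FPKM in the 4 oocyte groups. In the other 4 groups they summed to at most 8.61 FPKM. Several differed between the MII oocytes of culture and animal. Zp3 was at 739 FPKM in culture and 79.8 in the animal, Zp2 at 483 and 37.8, and Nobox at 47.7 and 13.5. Zp1, Bmp15 and Figla were also higher in culture, while Gdf9 and Mos were lower. Values of all genes summed to 349451 and 349772 FPKM in secondary follicle oocytes of culture and animal, and to 616260 and 975407 FPKM in MII oocytes. Counts that involve MII oocytes are therefore also given with all 8 columns scaled to equal sums, which moved the median log2 ratio of all tested genes from -0.09 to -0.74 for MII against secondary follicle oocytes in the animal and from -0.08 to -0.50 in culture. MII libraries were made from 99 to 134 oocytes, secondary follicle libraries from 337 to 812 oocytes, and the cells of culture up to reaggregation from 5300 to 15000. Since each value is a relative level in the poly(A) RNA of bulk samples, fewer cells with a message and less of it in each cell cannot be told apart. Levels are compared between genes on the FPKM scale, which is per length.

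In ES cells and in all 3 germ cell groups before oocyte growth, the 6 helicase messages stood at similar, high levels. In ES cells Mcm3 was at 142 FPKM, Mcm6 at 119.7, Mcm5 at 116, Mcm2 at 113, Mcm4 at 81.6 and Mcm7 at 78.1 FPKM. The highest of the 6 was 1.81-fold the lowest there, 1.89-fold in day 6 PGCLCs, 1.91-fold in reaggregated PGCLCs and 2.11-fold in E12.5 PGCs. The order within that narrow range differed between groups: Mcm3 led in ES cells, while Mcm6 led in day 6 PGCLCs at 130.0 FPKM, in reaggregated PGCLCs at 109 FPKM and in PGCs at 157 FPKM. Mcm4 or Mcm7 was the lowest in each. The sum over the 6 genes was 649.7 FPKM in ES cells, 624 in day 6 PGCLCs, 513 in reaggregated PGCLCs and 672 in PGCs.

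**Figure D1:**
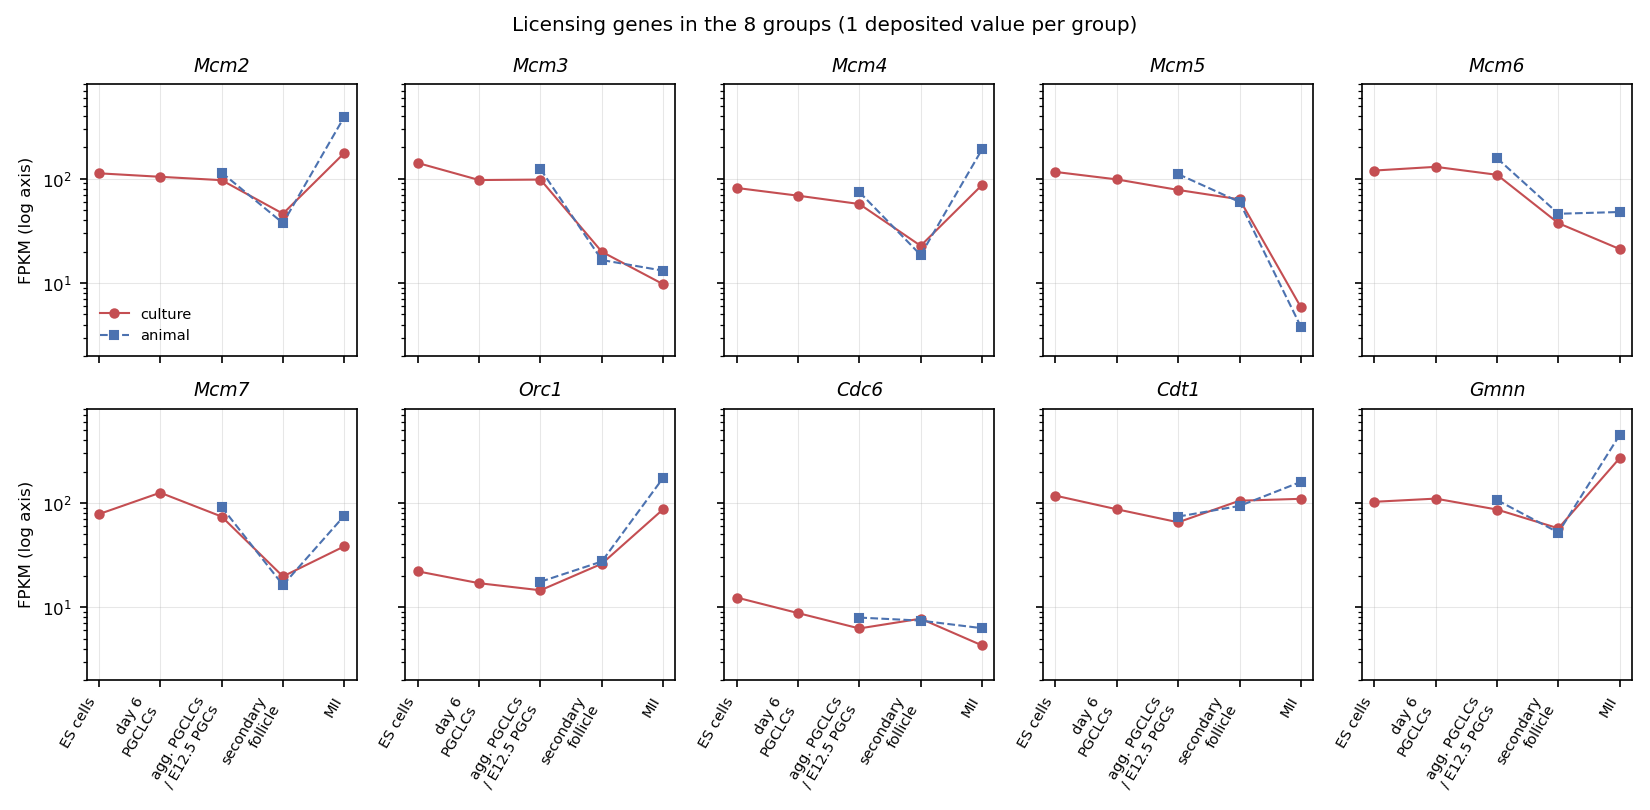
FPKM of each of the 10 licensing genes (log axis, 1 panel per gene) along the stages, with 1 value per group, in culture (red circles, solid line) and in the animal (blue squares, dashed line). The 6 helicase messages lie close together before oocyte growth and range from 3.81 FPKM for Mcm5 to 392 FPKM for Mcm2 in MII oocytes of the animal.

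Among the loaders, Cdt1 and Orc1 differed widely in level and Cdc6 was the lowest member in every group but the MII oocytes of the animal, where Mcm5 was lower. Cdt1, which brings the helicase ring to the origin, was at 117 FPKM in ES cells, 87.0 in day 6 PGCLCs, 65.3 in reaggregated PGCLCs and 74.0 in PGCs. Orc1 was at 22.1, 17.0, 14.5 and 17.6 FPKM in the same groups, and Cdc6, the ATPase that closes the loading complex, at 12.4, 8.80, 6.27 and 7.97 FPKM. Gmnn was close to the helicase genes, at 103, 110.04, 86.5 and 106 FPKM. Geminin message was 0.873-fold that of Cdt1 in ES cells and between 1.27-fold and 1.44-fold in the 3 germ cell groups.

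The first step of the culture route, from ES cells to day 6 PGCLCs, moved no member by 2-fold on the scale log2(FPKM + 1), which is used for every log2 ratio below. Of all tested genes, 9.63% were higher and 12.0% lower by 2-fold or more at this step. Mcm7 had the highest log2 ratio of the members, 0.68, from 78.1 to 125 FPKM, and Mcm3 the lowest, -0.54, from 142 to 97.1 FPKM. The median over the 10 members was -0.24, beside 0.00 for all tested genes. Mixing with gonadal cells for 3 days moved none by 2-fold either, where 5.15% of tested genes were higher and 5.04% lower. There, 9 of 10 members had a log2 ratio below 0, beside 51.7% of all tested genes. Mcm7 was at -0.75, and the median of the members was -0.30, beside -0.02 for all genes. With equal sums that median was -0.06, beside 0.11 for all genes, and Mcm2 and Orc1 turned above 0, as Mcm2, Mcm4 and Mcm6 did with quantile normalization.

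In secondary follicle oocytes all 6 helicase messages were lower than at the PGC stage (reaggregated PGCLCs or E12.5 PGCs) on both routes. Those other than Mcm5 were lower by 2-fold or more, while none of the 3 loaders changed by 2-fold. In the animal, Mcm3 went from 124 FPKM in PGCs to 16.6 in secondary follicle oocytes, Mcm7 from 91.6 to 16.3, Mcm4 from 74.5 to 18.6, Mcm6 from 157 to 46.1 and Mcm2 from 115 to 37.5 FPKM. Mcm5 went from 111 to 59.9 FPKM and became the highest of the 6. The log2 ratios ran from -2.82 for Mcm3 to -1.59 for Mcm2, with Mcm5 at -0.87. In culture, from reaggregated PGCLCs, Mcm3 went from 98.1 to 19.9 FPKM, Mcm7 from 74.0 to 19.8, Mcm6 from 109 to 37.5, Mcm4 from 57.2 to 22.7 and Mcm2 from 96.8 to 46.2 FPKM, with log2 ratios from -2.24 to -1.05. Mcm5 was again the exception, at 78.0 and 63.5 FPKM and a log2 ratio of -0.29.

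Counted over all members, 5 were lower by 2-fold or more in culture (Mcm2, Mcm3, Mcm4, Mcm6 and Mcm7) and 6 in the animal (the same 5 genes and Gmnn), and 0 were higher. The background was large at this step: 26.4% of tested genes were lower and 25.2% higher in culture, and 25.9% lower and 24.3% higher in the animal. The median log2 ratio over the 6 helicase genes was -1.40 in culture and -1.85 in the animal, where all tested genes had a median of -0.09 on both routes. Mcm2 in culture and Gmnn in the animal were near the limit: with a pseudocount of 5 their log2 ratios were -0.99 and -0.97. With equal sums Mcm5 passed the limit in the animal, at -1.21.

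On the deposited scale Cdt1 and Orc1 were higher in secondary follicle oocytes than at the PGC stage on both routes, by less than 2-fold. Cdt1 was at 65.3 and 105 FPKM before and after this step in culture and at 74.0 and 93.6 FPKM in the animal. Its log2 ratios were 0.68 and 0.33. Orc1 was at 14.5 and 26.1 FPKM in culture and at 17.6 and 27.5 FPKM in the animal, with log2 ratios of 0.80 and 0.62. With equal sums the log2 ratio of Cdt1 came to 0.31 in culture and 0.01 in the animal, and that of Orc1 to 0.45 and 0.30. Cdc6 stayed between 6.27 and 7.97 FPKM in these 4 groups. Gmnn was at 86.5 and 57.1 FPKM in culture and at 106 and 52.0 FPKM in the animal. Cdt1 message was therefore above that of its inhibitor in secondary follicle oocytes, with Gmnn at 0.543-fold of Cdt1 in culture and 0.556-fold in the animal.

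MII oocytes held the members at very unequal levels. In the animal, Mcm2 went from 37.5 FPKM in secondary follicle oocytes to 392 in MII oocytes, Mcm4 from 18.6 to 191 and Mcm7 from 16.3 to 75.5 FPKM, which is 10.5-fold, 10.3-fold and 4.62-fold. Mcm5 went from 59.9 to 3.81 FPKM, 15.7-fold lower. Mcm6, at 46.1 and 48.0 FPKM, and Mcm3, at 16.6 and 13.1 FPKM, were within 2-fold. Mcm5, the most abundant of the 6 in growing oocytes, was the least abundant in eggs.

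The same split was present in culture, at a smaller size. Mcm2 went from 46.2 to 176 FPKM and Mcm4 from 22.7 to 87.0 FPKM, both 3.82-fold or 3.83-fold higher, and Mcm5 from 63.5 to 5.87 FPKM, 10.8-fold lower. Mcm7 went from 19.8 to 38.4 FPKM, with a log2 ratio of 0.93 that missed the limit. Mcm6 was at 37.5 and 21.2 FPKM and Mcm3 at 19.9 and 9.74 FPKM.

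**Figure D2:**
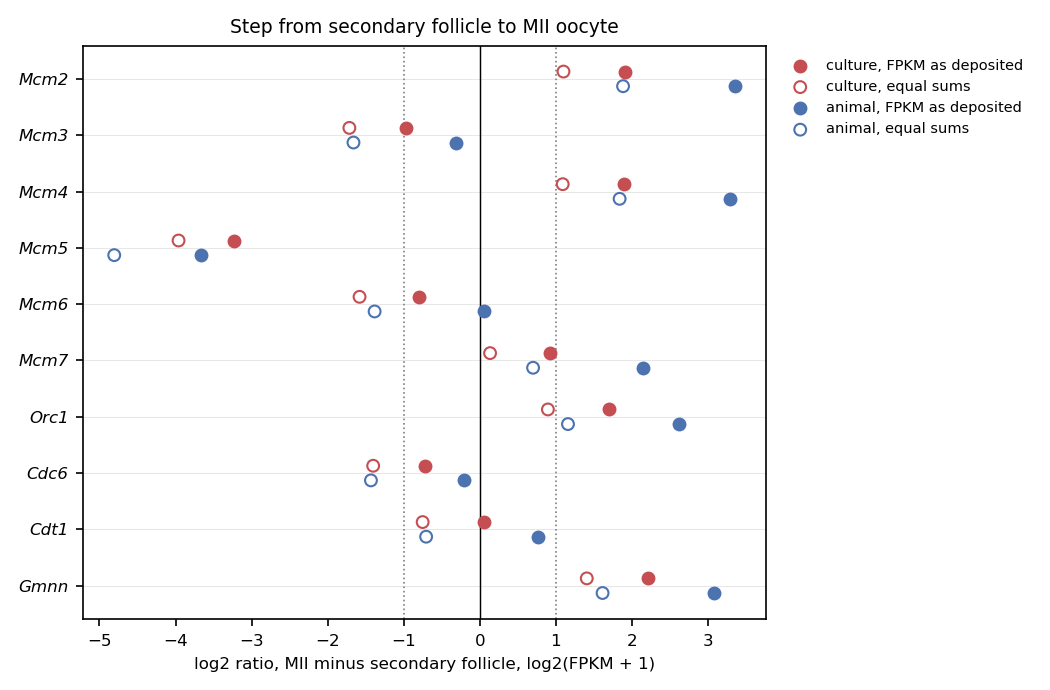
Log2 ratio of MII to secondary follicle oocytes, on log2(FPKM + 1), for the 10 members in culture (red) and in the animal (blue), with filled circles for FPKM as deposited, open circles for columns scaled to equal sums, and dotted lines at 2-fold. Mcm2, Mcm4 and Gmnn lie past 2-fold higher and Mcm5 past 2-fold lower in all 4 series.

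Orc1 and Gmnn accompanied Mcm2 and Mcm4. Orc1 went from 27.5 to 174 FPKM in the animal and from 26.1 to 87.0 FPKM in culture, 6.33-fold and 3.33-fold higher. Gmnn went from 52.0 to 449 FPKM in the animal, the highest value of any member in any group, and from 57.1 to 269 FPKM in culture, 8.63-fold and 4.72-fold higher. Cdt1 was at 93.6 and 159 FPKM in the animal and at 105 and 109.6 FPKM in culture, and with equal sums its log2 ratio turned from 0.76 to -0.70 in the animal and from 0.06 to -0.75 in culture. Gmnn stood at 2.82-fold of Cdt1 in animal eggs and 2.46-fold in cultured eggs. Cdc6 was at 7.45 and 6.30 FPKM in the animal and at 7.77 and 4.31 FPKM in culture. Cdc6 message was thus not higher in these mouse eggs than in growing oocytes on the deposited scale, and quantile normalization turned its log2 ratio in the animal from -0.21 to 0.43. Protein was not measured, so it cannot be said whether CDC6 protein appears in these eggs at maturation.

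At this step 5 of 10 members were higher and 1 lower by 2-fold or more in the animal, where 28.0% of tested genes were higher and 33.1% lower. In culture 4 were higher and 1 lower, against 23.9% and 28.6% of tested genes. With equal sums the split lay lower on the scale. Mcm2, Mcm4, Orc1 and Gmnn remained higher in the animal, with log2 ratios of 1.88, 1.84, 1.16 and 1.62, and Mcm7 came to 0.70. Mcm3, Mcm6 and Cdc6 then joined Mcm5 below 2-fold on both routes, and in culture Orc1 came to 0.90. Under that scaling 15.2% of tested genes were higher and 45.6% lower in the animal, and 15.0% and 39.5% in culture.

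**Figure D3:**
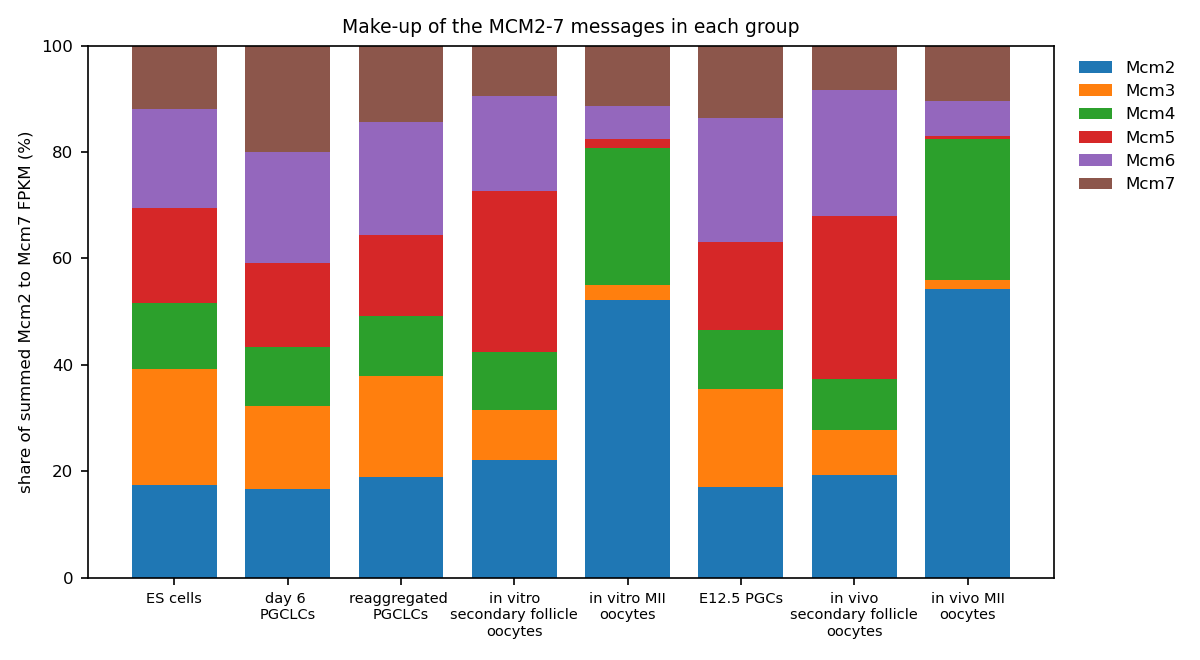
Share of the summed FPKM of Mcm2 to Mcm7 (percent) that each subunit's message made up in each of the 8 groups. The shares are near equal up to the PGC stages, Mcm5 leads in secondary follicle oocytes at 30.3% and 30.7%, and Mcm2 and Mcm4 together make up most of the sum in MII oocytes.

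Ratios between members within a group do not depend on scaling a column by a factor, but they do on quantile normalization. The highest of the 6 helicase messages was 3.21-fold the lowest in secondary follicle oocytes of culture and 3.67-fold in those of the animal, then 30.1-fold in MII oocytes of culture and 103-fold in those of the animal. With quantile normalization the MII values were 15.2-fold and 23.0-fold. Mcm2 made up 54.2% of the helicase sum in animal eggs and 52.1% in cultured eggs, Mcm4 26.4% and 25.7%, Mcm7 10.4% and 11.3%, Mcm6 6.63% and 6.25%, Mcm3 1.81% and 2.88%, and Mcm5 0.527% and 1.73%. The order of the 6 was the same in both. Mcm5 had made up 30.7% and 30.3% at the secondary follicle stage. Orc1 message, 3.69-fold and 3.36-fold that of Cdc6 in secondary follicle oocytes of animal and culture, was 27.6-fold and 20.2-fold in eggs.

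Several values move with the MII stage. The summed FPKM of 15 granulosa cell markers was 4.26 to 27.9 in the other groups and 79.6 and 62.8 in MII oocytes of culture and animal. Cyp19a1, the aromatase gene, led with 27.1 and 42.2 FPKM, and Fshr, the receptor for follicle-stimulating hormone, was listed at 0 in both. Amh, a product of granulosa cells, was lower, at 0.0509 FPKM in MII oocytes of culture and 0.297 in those of the animal, against 1.13 and 1.69 FPKM in secondary follicle oocytes. The 9 gonadal stroma markers summed to 80.0 and 65.4 FPKM, of which Gata4 gave 76.7 and 64.8 FPKM, and to between 1.33 and 17.7 FPKM in the other groups. The 6 cumulus expansion markers summed to at most 0.717 FPKM elsewhere and to 13.9 and 10.8 FPKM in MII oocytes, with Areg listed at 0. Their part in the members' values was not tested.

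Poly(A) selection adds another property that moves with this stage, since in maturing oocytes many stored messages gain or lose their tail. In vertebrate oocytes, messages that are tailed at maturation often carry a cytoplasmic polyadenylation element, bound by CPEB, near the end of the message. Its letters TTTTAT and TTTTAAT were looked for on the message strand in the last 100 bases of each gene's main GENCODE M21 transcript, a search chosen after the values were seen. A match was present in 6 of 10 members, against 18.9% of 13021 tested genes. All 5 members that were higher in animal eggs had one, of the other 5 only Cdt1 did, and it was absent from Mcm3, Mcm5, Mcm6 and Cdc6. With equal sums Mcm7, at 0.70, was no longer among those higher. A poly(A) signal, AATAAA or ATTAAA, was not found in the last 40 bases of Orc1, Mcm3 or Cdc6. In Cdt1 the match overlaps AATAAA. Windows of 30 bases around the matches are shown 5′ to 3′ on the gene's strand of GRCm38, because they were found in all 5 members called higher in animal eggs and in 1 of the other 5, with the matched letters in capitals.
Mcm2, chr6:88883490-88883519, minus strand: tgtagtttattTTTTAATagatttgaataa
Mcm4, chr16:15623967-15623996, minus strand: tttcattaatTTTTATagatccttagatta
Mcm7, chr5:138164613-138164642, minus strand: atgctgcacttTTTTATtctgccaataaag
Orc1, chr4:108614804-108614833, plus strand: gatacaaagtaaaattgaTTTTATagaaaa
Cdt1, chr8:122573073-122573102, plus strand: ctagttttggcTTTTAATaaagtcatgtaa
Gmnn, chr13:24751912-24751941, minus strand: tTTTTAATccgTTTTATgtaaatagcattt
Over all tested genes with a transcript, 33.7% of those higher in animal eggs, 16.7% of those within 2-fold and 8.92% of those lower had a match, and in culture 33.3%, 17.2% and 9.45%. Tail length was not measured, and its part in the values was not tested.

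Gene positions bear on how 2 members were counted. Mcm7 lies at chr5:138164583-138172422 on the minus strand of GRCm38 and shares 321 exonic bases with Ap4m1 and 64 with Cops6, both on the opposite strand, and 84 and 88 bases with the microRNA genes Mir25 and Mir93 on its own strand. Orc1, at chr4:108579423-108614833 on the plus strand, shares 376 exonic bases with Gm12743 on the opposite strand. Libraries were directional, but the sources used here do not say whether counting used strand, so the values of Mcm7 and Orc1 may include reads of these neighbours. Mcm2 lies at chr6:88883474-88898780 and Mcm5 at chr8:75109569-75128439, with no such overlap found.

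Set against their animal counterparts, the culture groups held the members at similar levels before the MII stage. In reaggregated PGCLCs all 10 members were lower than in E12.5 PGCs, on the deposited scale and under every alternative run, by log2 ratios from -0.52 for Mcm6 (109 against 157 FPKM) to -0.18 for Cdt1 (65.3 against 74.0 FPKM). None passed 2-fold, where 1.39% of tested genes were higher and 0.786% lower. Their median was -0.30, while all tested genes had a median of 0.00 with 49.4% below 0. The 85 other tested genes of the replication and E2F pathways, described below, had a median of -0.19, and of -0.14 with equal sums. Somatic markers moved with this comparison: the stroma markers summed to 10.4 FPKM in reaggregated PGCLCs against 1.33 in PGCs, and the granulosa markers to 21.2 against 13.1 FPKM. In day 6 PGCLCs, not yet mixed with gonadal cells, the same sums were 15.5 and 4.26 FPKM. Inha, a granulosa gene, was at 4.69 against 0.839 FPKM and the collagen gene Col3a1 at 2.42 against 0.0906 FPKM. Krt18, the highest granulosa marker in PGCs, went the other way, at 4.56 against 9.12 FPKM. Germ cell markers went both ways. Ddx4 was at 62.1 against 135 FPKM, and Dazl and Dnd1 were also lower. Dppa3 was at 209.6 against 176.0 FPKM, Nanos3 at 23.4 against 20.3 and Stra8 at 66.7 against 63.6 FPKM. Fshr was listed at 0 in both groups, and the part of other cells in the members' values was not tested. In secondary follicle oocytes the log2 ratios of culture to animal ran from -0.29 for Mcm6 to 0.29 for Mcm2. Of the 10 members 8 were above 0, beside 51.0% of all tested genes. None passed 2-fold there either, and 1.74% of tested genes were higher and 0.660% lower.

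**Figure D4:**
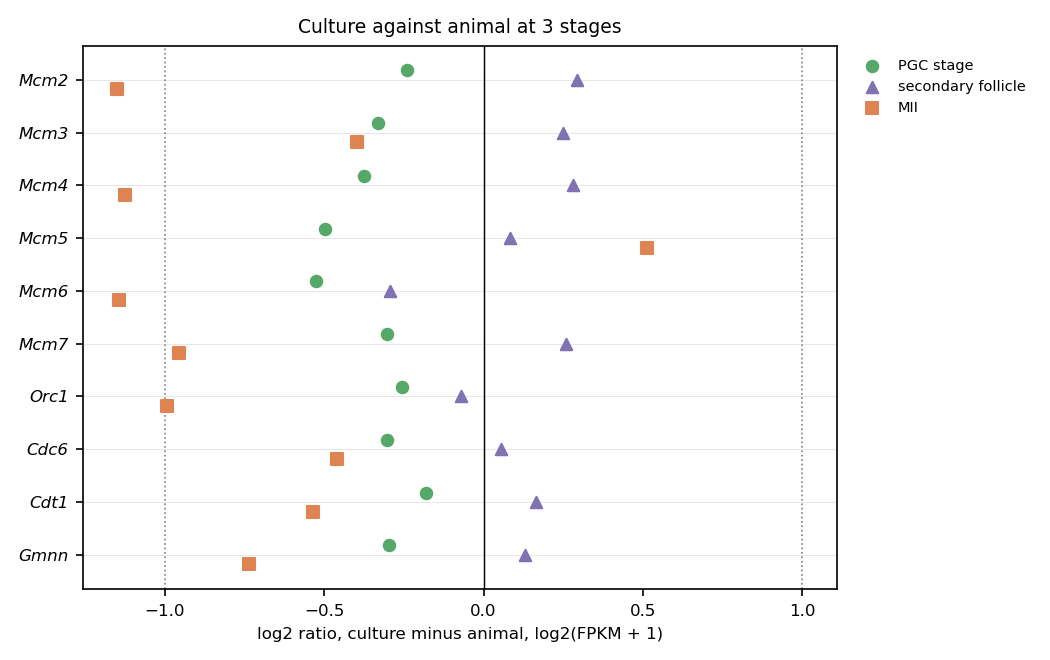
Log2 ratio of culture to animal, on log2(FPKM + 1), for each member at the PGC stage (circles), in secondary follicle oocytes (triangles) and in MII oocytes (squares), with dotted lines at 2-fold. At the PGC stage all 10 lie left of 0, and in MII oocytes Mcm2, Mcm4 and Mcm6 lie past 2-fold lower.

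In MII oocytes 9 of 10 members were lower in culture, and 3 of them by 2-fold or more: Mcm2 (176 against 392 FPKM, log2 ratio -1.15), Mcm4 (87.0 against 191 FPKM, -1.13) and Mcm6 (21.2 against 48.0 FPKM, -1.14). Over all tested genes 44.9% had a log2 ratio below 0, and 9.45% were lower and 12.4% higher by 2-fold or more. Orc1, at 87.0 against 174 FPKM, and Mcm7, at 38.4 against 75.5 FPKM, came next with -0.99 and -0.96. Mcm5 was the only member higher in culture, 5.87 against 3.81 FPKM, a log2 ratio of 0.51. None of the 3 passed 2-fold with equal sums, where the ratios of Mcm2, Mcm4 and Mcm6 were -0.49, -0.47 and -0.49, or with quantile normalization. Of all tested genes, 1.18% were lower and 16.7% higher with equal sums, and 5.61% and 8.98% with quantile normalization. The median of all tested genes was 0.23 with equal sums. With equal sums Mcm3, Cdc6 and Cdt1 turned above 0, at 0.20, 0.09 and 0.12. The summed FPKM of all genes was 1.58-fold higher in the animal group. Markers differed between these groups as well, and their part in the members' values was not tested. The oocyte gene Zp3 was at 739 FPKM in culture against 79.8 in the animal, while Gdf9 and Mos went the other way. Inha was at 19.3 against 2.55 FPKM, and Cyp19a1 at 27.1 against 42.2 FPKM.

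Beyond the members, 86 further genes of the replication and E2F pathways were followed, of which 85 were tested. None passed 2-fold between the routes at the PGC or the secondary follicle stage. In MII oocytes 11 were higher and 11 lower in culture than in the animal, and 9 and 0 with equal sums. Of all tested genes 12.4% were higher and 9.45% lower there, and 16.7% and 1.18% with equal sums. At the step to secondary follicle oocytes 13 were higher and 32 lower in culture and 10 and 35 in the animal. The shares over all tested genes were 25.2% and 26.4% for culture and 24.3% and 25.9% for the animal. At the step to MII, 34 were higher and 27 lower in culture and 39 and 30 in the animal, and the median log2 ratios were 0.19 and 0.76, beside -0.08 and -0.09 for all tested genes. The shares of all tested genes higher and lower at this step were 23.9% and 28.6% in culture and 28.0% and 33.1% in the animal. With equal sums 24 of the 85 were higher and 34 lower in culture and 25 and 34 in the animal, and the medians turned to -0.43 and -0.52, beside -0.50 and -0.74 for all tested genes. The counts of each list below are read against these shares.

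**Figure D5:**
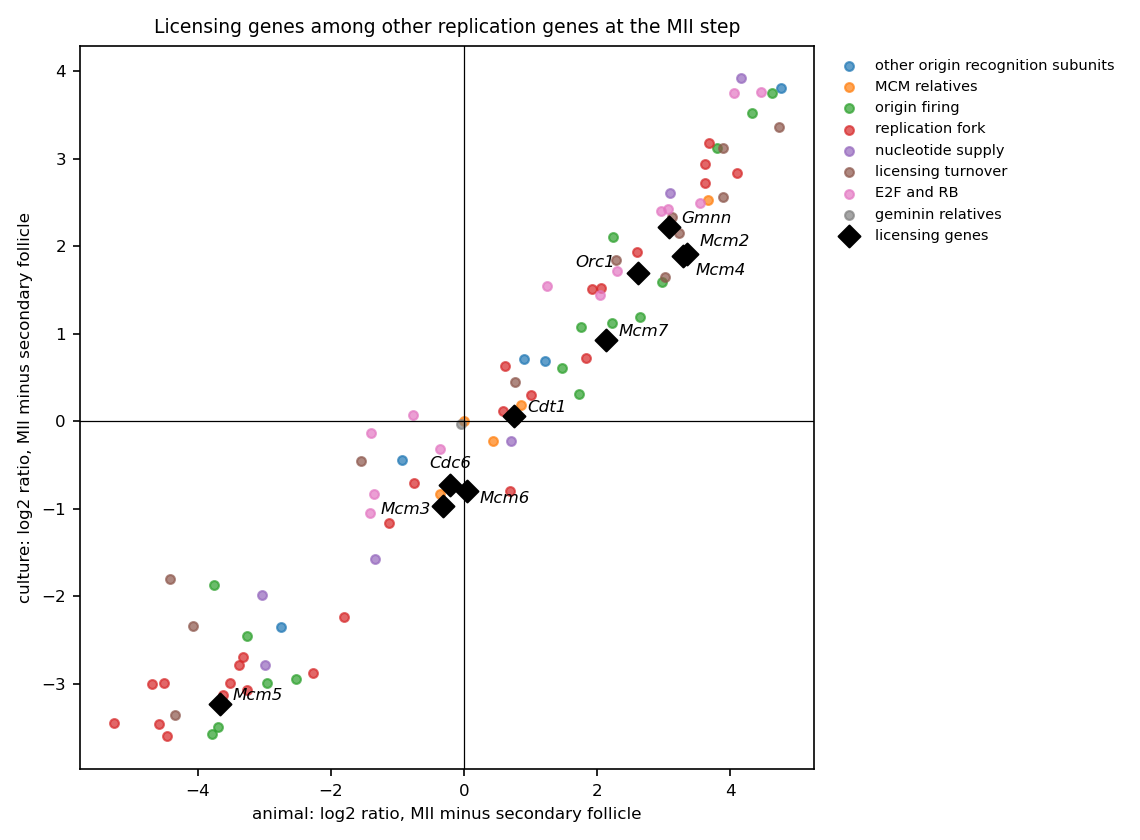
Log2 ratio of MII to secondary follicle oocytes, on log2(FPKM + 1), in the animal (horizontal axis) and in culture (vertical axis), for the 10 licensing genes (black diamonds) and the 85 other tested pathway genes (circles coloured by list). The licensing genes spread from Mcm5 at the lower left to Mcm2 at the upper right, and genes of most lists lie at both ends.

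Other subunits of the origin recognition complex did not all move the same way at the MII step. Of the other 5, 2 were higher and 1 lower in animal eggs than in secondary follicle oocytes, and 1 and 1 in culture. With equal sums 1 was higher and 2 lower on both routes, and Orc4 in the animal came from 1.22 to -0.20. Orc6, needed for helicase loading, went from 20.3 to 578 FPKM in the animal and from 22.2 to 324 in culture. Orc3, a core subunit, went from 7.68 to 0.292 FPKM and from 8.09 to 0.774 FPKM. Orc5 was the subunit called higher at the step to secondary follicle oocytes, from 23.1 to 152 FPKM in the animal and from 20.7 to 150.1 FPKM in culture. Among 5 MCM relatives, Mcmbp, which binds MCM subunits, was the one called at the MII step on the deposited scale, from 9.68 to 135 FPKM in the animal and from 12.49 to 77.2 FPKM in culture.

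Of 16 origin firing genes, 10 were higher and 6 lower at the MII step in the animal, and 8 and 6 in culture. With equal sums 5 were higher and 6 lower in the animal, and 4 and 6 in culture. Dbf4, the activator of the CDC7 kinase that phosphorylates the loaded helicase, went from 65.5 to 1331 FPKM in the animal and from 64.2 to 746 FPKM in culture. Gins4, a subunit of the GINS complex that joins the active helicase, went from 57.0 to 3.22 FPKM and from 64.1 to 4.48 FPKM. Gins2 had gone the other way up to the secondary follicle stage, from 11.3 to 105 FPKM in the animal and from 7.98 to 109.8 FPKM in culture.

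Of 26 replication fork genes, 13 were lower at the MII step on each route, while 9 were higher in the animal and 7 in culture. With equal sums 5 were higher on both routes, and 14 were lower in the animal and 15 in culture. Prim1, the catalytic primase subunit, went from 23.1 to 0.0908 FPKM in the animal and from 22.6 to 0.946 FPKM in culture. Rpa3, of the single-strand binding complex, went from 24.0 to 321 FPKM and from 17.0 to 162 FPKM. Of 6 nucleotide supply genes, 2 were higher and 3 lower on both routes, with the same counts under equal sums. Rrm2, the regulated subunit of ribonucleotide reductase, had been at 70.6 FPKM in PGCs, then at 8.74 FPKM in secondary follicle oocytes of the animal, and was at 174 FPKM in eggs.

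Genes that control licensing proteins or transcription of the G1/S genes were followed as well. Of 13 genes for the turnover of CDT1, geminin and related proteins, 7 were higher and 4 lower at the MII step in the animal, and 7 and 3 in culture, and with equal sums 6 were higher and 4 lower on both routes. Skp2, an F-box protein that directs CDT1 to destruction, went from 1.05 to 53.8 FPKM in the animal and from 1.74 to 27.2 FPKM in culture. Fzr1, which encodes the CDH1 activator of the complex that degrades geminin, went from 151 to 8.03 FPKM and from 207 to 39.95 FPKM. Of 13 E2F and RB genes, 8 were higher at this step on both routes, and 3 were lower in the animal and 1 in culture. With equal sums 5 were higher on both routes, and 4 were lower in the animal and 2 in culture. Tfdp1, the E2F partner, went from 8.59 to 210.1 FPKM in the animal and from 7.77 to 118 FPKM in culture. E2f3 had gone from 11.5 to 0.393 FPKM and from 11.3 to 0.333 FPKM at the step to secondary follicle oocytes.

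Genes with the most similar pattern were sought by Pearson's r of log2(FPKM + 1) over the 8 groups, among genes with at least 10 FPKM in 1 group. These r are descriptions over 8 values that share the scale of each group. Closest to the mean of the helicase genes were Hnrnpab (0.994), Rrm1 (0.992), Ipo5 (0.990), Ppp2r1b (0.988) and Cbfb (0.986). Rrm1, the large subunit of ribonucleotide reductase, was thus near the helicase mean while Rrm2 was not among the 5. Closest to Orc1 were Sipa1l1 (0.997), Rbbp7 (0.997), Rexo1 (0.996), Zfp423 (0.995) and N4bp1 (0.995), and closest to Gmnn were Cdc40 (0.996), Dnajc8 (0.996), Snrpd1 (0.994), Csnk1g2 (0.994) and Isy1 (0.994). Cdt1 was most similar to Wars (0.978), Prdx1 (0.971), Kdm4a (0.970), Idh3a (0.957) and Pdia6 (0.957). Cdc6 had the least close neighbours, with Fem1b at 0.944, Klhl22 at 0.930, Gdi2 at 0.920 and Dbr1 at 0.918.

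Among the members themselves, Mcm2 and Mcm4 had an r of 0.98 over the 8 groups and Mcm2 and Gmnn 0.96. Mcm3 and Mcm6, which were lower in eggs than at the PGC stages, had 0.95. Mcm5 and Orc1 had -0.97, the lowest value of any pair. On the deposited scale Mcm2 and Mcm4 were thus nearer in pattern to the inhibitor than to Mcm5. These r were not computed with equal sums.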

How the data were processed

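Poly(A) RNA of 23 samples in 8 groups was sequenced with directional libraries after 12 cycles of PCR, per the labels' protocols. TopHat2, Bowtie2 2.0.13, Cufflinks and Cuffdiff 2.2.1 were used with mm10, per the submitters' processing notes. The values deposited by the authors are FPKM, 1 per gene and group; the sources used here give neither read depth nor how samples were combined. The planned tests needed values per sample, so none could be run, and no p-value, SE or interval is given.

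All log2 ratios are differences of log2(FPKM + 1). Fold values printed for single genes, or between genes of a group, are plain quotients of FPKM. Genes were tested with at least 1 FPKM in at least 1 group (14242 of 22784 genes) and were counted as higher or lower at a log2 difference of 1, that is 2-fold, in 9 comparisons. Low genes' differences are understated on this scale. Members and lists were chosen with earlier results of these data known. Named were all members, up to 4 called genes with the largest ratio per list and comparison, and the 5 genes most similar to the helicase mean and to each other member, of which 1 is not reported here. Scripts were tested on simulated data. Alternatives were pseudocounts of 0.1 and 5, quantile normalization, median centring, equal sums, no filter and a filter of 5 FPKM. Promoters are from RefSeq (GRCm38.p6), transcripts and positions from GENCODE M21 (GRCm38, that is mm10). Scripts ran in Python 3.11.15 (matplotlib 3.10.9, NumPy 2.4.6, pandas 2.3.3, SciPy 1.17.1).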

Additional observations from a re-analysis of the deposited data

How the results depend on the processing

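Of the 134 alternative values for member counts and ratios within groups, 127 stayed within their limits and 7 did not. For members lower in cultured than in animal MII oocytes the count went from 3 to 0 with quantile normalization and to 0 with equal sums. The share of all tested genes lower went from 9.45% to 5.61% and to 1.18% under the same settings. Members lower in MII than in secondary follicle oocytes went in culture from 1 to 2 with a pseudocount of 0.1 and to 4 with equal sums, and in the animal from 1 to 4 with equal sums. Under quantile normalization the highest helicase message was 15.2-fold the lowest in MII oocytes of culture and 23.0-fold in those of the animal. Of 126 counts over the other lists, 27 moved with equal sums, 21 with a pseudocount of 5 and 12 with quantile normalization.

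No paired analysis was possible because the table holds 1 value per group, and alternatives that leave out a sample were not run for that reason. Depth is unknown, and no precision is given for low values such as those of Cdc6 or of Mcm5 in eggs.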

Other observations

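On the deposited scale, subunit messages of 2 partner complexes of the helicase also went different ways at the step to MII. The 2 complexes were chosen after their values were seen. The GINS messages were already unequal in secondary follicle oocytes, with Gins2 at 105 FPKM and Gins3 at 6.61 FPKM in the animal. In the GINS complex, Gins1 went from 38.3 FPKM in secondary follicle oocytes to 5.86 in MII oocytes of the animal, Gins2 from 105 to 7.20 and Gins4 from 57.0 to 3.22 FPKM, while Gins3 went from 6.61 to 24.1 FPKM, a log2 ratio of 1.72 that came to 0.35 with equal sums. In culture Gins1 went from 34.7 to 3.63 FPKM and Gins3 from 9.79 to 12.3 FPKM. In replication protein A, which coats single-stranded DNA, Rpa1 went from 130.4 to 59.3 FPKM in the animal, Rpa2 from 44.9 to 0.910 FPKM and Rpa3 from 24.0 to 321 FPKM, with log2 ratios of -2.57, -5.34 and 2.23 with equal sums.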
